A study of Mus musculus with 4 samples.

Results

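The genes described here are 10 members of glycolysis and of the transcriptional response to low oxygen, measured cell by cell in the mouse brain after a transient stroke. They were chosen by symbol from the feature list that accompanies the count matrices, which holds 31053 features: the glycolysis genes Hk2, Pfkfb3, Aldoa, Pgk1, Pgam1, Eno1 and Ldha, and the hypoxia-response genes Bnip3, Adm and Egln3. All 10 symbols were found, and Aldoa appeared under a second identifier as well, whose counts over all kept cells were between 1 and 5 molecules per library and which is not described further. Expression was measured by droplet single-cell RNA sequencing of the ipsilateral cerebral hemisphere in 4 libraries, 1 each from sham-operated mice and from mice at day 1, day 3 and day 7 after transient middle cerebral artery occlusion (tMCAO). All 4 libraries came from C57/BL6 male mice, given as 8 weeks old, with no transgene or drug named in the labels, and the tMCAO animals had a filament placed in the artery and withdrawn to allow reperfusion. The sham label carries no day, while the series' design text places that library at day 7, so it is matched in time to at most 1 of the tMCAO libraries. The number of animals behind each library is not given in the sources used here. Hemispheres were digested with papain and passed through a Percoll step that removes myelin debris, so the cells counted are those that survived this preparation.

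Glycolysis splits glucose into pyruvate and yields ATP without oxygen. Hexokinase traps glucose in the cell, phosphofructokinase sets the pace, the middle enzymes carry the sugar phosphates down to pyruvate, and lactate dehydrogenase turns pyruvate into lactate and restores the NAD+ that the pathway needs. When oxygen falls, prolyl hydroxylases such as Egln3 stop marking the HIF alpha subunits for degradation, and stabilised HIF binds DNA at sites with an RCGTG core and raises transcription of these enzymes and of genes such as Bnip3, which acts in mitophagy, and Adm, a vasodilator peptide. Brain endothelium, glia and neurons differ widely in how much they rely on this pathway, and all of them meet a loss and then a return of blood flow in the model used here.

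The promoters of 4 members are printed because they are those of the genes whose levels the results turn on, each as the 250 bases before a RefSeq transcription start (GRCm38.p6) on the strand of the gene, with matches to the HIF core ACGTG, read on either strand, in capitals. A palindromic CACGTG counts as 2 matches, and matches to the other form of the core, GCGTG, are not capitalised.
Hk2, chr6:82774455-82774704, minus strand: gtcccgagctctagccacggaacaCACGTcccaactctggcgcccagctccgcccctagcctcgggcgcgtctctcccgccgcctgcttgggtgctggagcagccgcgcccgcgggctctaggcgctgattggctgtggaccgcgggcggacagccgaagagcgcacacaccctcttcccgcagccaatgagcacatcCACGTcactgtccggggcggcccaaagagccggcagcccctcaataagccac
Pgk1, chrX:106186850-106187099, plus strand: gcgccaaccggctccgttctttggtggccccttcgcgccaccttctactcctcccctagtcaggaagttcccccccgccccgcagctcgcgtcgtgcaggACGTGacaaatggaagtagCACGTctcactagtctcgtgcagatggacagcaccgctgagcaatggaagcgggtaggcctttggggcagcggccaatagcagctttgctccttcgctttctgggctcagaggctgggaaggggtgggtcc
Ldha, chr7:46845554-46845803, plus strand: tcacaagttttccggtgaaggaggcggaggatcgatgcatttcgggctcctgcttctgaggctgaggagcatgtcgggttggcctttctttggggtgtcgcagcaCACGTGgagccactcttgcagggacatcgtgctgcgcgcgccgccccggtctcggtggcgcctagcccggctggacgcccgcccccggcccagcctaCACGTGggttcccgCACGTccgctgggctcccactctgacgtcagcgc
Adm, chr7:110627407-110627656, plus strand: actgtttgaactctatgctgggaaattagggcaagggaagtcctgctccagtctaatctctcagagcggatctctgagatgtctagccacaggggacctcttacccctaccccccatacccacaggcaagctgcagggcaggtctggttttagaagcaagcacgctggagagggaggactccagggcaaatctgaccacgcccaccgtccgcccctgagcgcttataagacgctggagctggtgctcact
The printed Ldha window, the first of its 2 in the table, held 5 matches, beginning 145, 144, 48, 47 and 34 bases before the start, while the other, at chr7:46846832-46847081, held none. The Pgk1 window held 2 at 150 and 131 bases, and the Hk2 window held 2 at 226 and 52 bases. The Adm window held no ACGTG and 2 GCGTG. Of the 10 members, 8 had an ACGTG in at least 1 of their promoter windows (80.0%), against 18.5% of 27025 genes in the same table, and 5 had 2 or more in a window (50%), against 7.76%. Counted by window, 10 of 16 member windows held ACGTG (62.5%), against 16.6% of all 32851 windows, and 8 of 16 held GCGTG (50%), against 28.2%. These are matches of letters within a fixed window and were not tested as binding sites.

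In the mouse genome (GRCm38, GENCODE vM21 gene models, chosen here because they matched 99.6% of the feature identifiers), Hk2 lies at chr6:82725025-82774454 on the minus strand, Pfkfb3 at chr2:11471433-11554077 (minus), Aldoa at chr7:126795234-126800751 (minus) and Pgk1 at chrX:106187100-106203699 (plus). Pgam1 lies at chr19:41911923-41918660 (plus), Eno1 at chr4:150236721-150248879 (plus) and Ldha at chr7:46841475-46855627 (plus). Bnip3 lies at chr7:138890836-138909519 (minus), Adm at chr7:110627661-110629820 (plus) and Egln3 at chr12:54178981-54203860 (minus). Hk2, Pfkfb3, Aldoa, Bnip3 and Adm each overlap an annotated gene on the opposite strand (Gm17034, Gm10851, Fam57b, Gm45507 and Gm28863). Several glycolysis genes also have near-identical processed copies elsewhere in the genome, so their absolute levels are uncertain. The copy of enolase with its own row, Eno1b, stood at 13 to 28 UMIs per library over all kept cells.

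The files held 59429 cell barcodes with between 69392755 and 104023002 molecules (unique molecular identifiers, UMIs) per library, and 44360 cells remained within 200 to 3000 genes and at most 10% mitochondrial UMIs, with a median of 2508 to 3732 UMIs per cell. Libraries shared between 1.12% and 1.32% of their cell barcodes with another library. Cells were assigned to a class by a gate on marker genes (at least 3 markers of a class detected and at least 2 more than of any other class), and each class is called after its markers with the suffix -like. Such a gate defines a range rather than a type: 9.14% to 12.5% of the gated cells of a library lay within 1 marker of the cut. Endothelial-like cells were the most numerous (4719, 6761, 5645 and 9002 in the libraries from sham, day 1, day 3 and day 7), followed across the libraries by oligodendrocyte-like and vascular smooth muscle-like cells. Microglia-like cells numbered 136, 554, 386 and 296, and pericyte-like cells 210, 461, 542 and 479, of which 30.1% to 43.2% lay near the cut. Markers of a class had to be present in it, because the gate used them, so their sums give a level and no check of the class. The 6 endothelial markers (Cldn5, Ly6c1, Ly6a, Itm2a, Flt1 and Pecam1) summed to 22539 to 29796 CPM (UMIs of a gene per 1e6 UMIs of the cells concerned) in endothelial-like cells. The 5 pericyte markers, led by Vtn, summed to 22901 to 36494 CPM in pericyte-like cells, and the 8 microglia markers, led by C1qa and C1qb, to 26791 to 34563 CPM in microglia-like cells. Levels below are the summed UMIs of a gene in a class and library scaled to 1e6 UMIs of that class and library, which are not divided by gene length and so are compared within a gene and not between genes. With 1 library per group there is no replicate, so no test was possible: the intervals given are exact 95% intervals for counting error only and do not cover differences between animals or preparations. All 3 tMCAO libraries were compared with the same sham library, so their ratios are not independent of each other.

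Over all kept cells, the 10 members together stood at 1293 CPM in the sham library, 1569 at day 1, 1942 at day 3 and 1347 at day 7. The summed level was thus highest at day 3, with a ratio over sham of 1.5 (1.48 to 1.52), against 1.21 (1.20 to 1.23) at day 1 and 1.04 (1.03 to 1.05) at day 7. Mitochondrial UMIs made up 4.02%, 3.69%, 2.98% and 4.31% in the same order, lowest at day 3, and their part in this was not tested. A sum over a whole library mixes the shares of cell classes with the level per cell, and these cannot be told apart in it. Of the 6 members measured at 50 CPM or more over all kept cells, none passed 2-fold on any day, where 5.99%, 2.64% and 1.62% of all genes measured did so at day 1, day 3 and day 7. The intervals of Pgk1, Aldoa, Pgam1, Ldha and Bnip3 lay above 1 at day 1 and that of Eno1 below it, while at day 3 all 6 lay above 1. Of all genes measured, 44.9% stood above sham at day 1 and 53.8% at day 3. The share of all genes with intervals that exclude 1 was not computed. At day 7 Ldha, Aldoa and Bnip3 were still above sham, and Pgam1 and Eno1 were below it. With a limit of 6000 genes per cell in place of 3000, Eno1 at day 1 turned to 1.17 and Aldoa at day 7 to 0.943.

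Within classes, the summed level of the members was higher at day 3 than in sham in every class that could be compared on that day, with ratios of 1.67 (1.64 to 1.70) in endothelial-like, 1.54 (1.39 to 1.70) in microglia-like, 1.5 (1.35 to 1.67) in neuron-like, 1.33 (1.28 to 1.37) in vascular smooth muscle-like, 1.31 (1.22 to 1.41) in pericyte-like and 1.29 (1.24 to 1.33) in oligodendrocyte-like cells. In the astrocyte-like cells the ratio was 1.09 and its interval, 0.954 to 1.25, held 1. A sum is weighted by its most abundant members, and in microglia-like cells Hk2 made up 318 of the 1070 CPM in sham and moved against the others. Without Hk2, a sum added after seeing the data, the microglia-like ratios were 2.02 (1.81 to 2.26) at day 1, 1.96 (1.75 to 2.21) at day 3 and 1.14 (1.01 to 1.29) at day 7, and the other classes kept ratios within the intervals of the full sum. With all members, at day 7 the ratio was 1.15 in endothelial-like cells, 0.949 (0.853 to 1.06) in microglia-like cells, and below 1 in oligodendrocyte-like (0.959), vascular smooth muscle-like (0.909) and pericyte-like (0.798) cells. Choroid plexus-like cells, compared at day 1 and day 7, stood below sham on both days, at 0.591 (0.555 to 0.630) and 0.722 (0.664 to 0.784).

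Counting each member in each class as a pair, 47 pairs were measured at day 1, 43 at day 3 and 33 at day 7 (50 CPM or more in the day's library or in sham, at least 50 cells in both). At day 1, 30 of 47 pairs stood above sham (63.8%, against 46.3% of all gene and class pairs), at day 3, 40 of 43 (93.0%, against 55.1%), and at day 7, 9 of 33 (27.3%, against 52.0%). Few pairs passed 2-fold, taken as a log2 ratio of at least 1 in size after adding 10 CPM to both levels. At day 1, 3 pairs were higher (6.38%) and 2 lower (4.26%), where 5.15% and 4.32% of all gene and class pairs were called. At day 3, 3 pairs were higher (6.98%) and 0 lower, against 2.42% and 2.67%, and at day 7 there were 0 in either direction, against 2.82% and 1.29%. The share past 2-fold at day 1 was therefore near the background. The members differed from all pairs mainly in the share on the higher side, which was larger at day 1 and day 3 and smaller at day 7. A pair that reached 50 CPM in the day's library alone must stand above sham, among the members and all genes alike. Adm in pericyte-like cells at day 3 was such a pair (39.8 CPM in sham). So were Pgk1 in microglia-like cells at day 1 and day 3 (47.9) and Bnip3 in neuron-like cells at day 1 (33.7). All of these were past 2-fold. Examples under 2-fold at day 3 were Ldha and Eno1 in oligodendrocyte-like cells (35.3 and 49.6 CPM in sham) and Adm in endothelial-like cells (46.0). The shares above sham without such pairs were not computed. The median log2 ratio of the measured members in endothelial-like cells was 0.35, 0.53 and 0.10 at the 3 days, beside -0.06, 0.00 and 0.05 over all genes measured in those cells. In microglia-like cells it was 0.84, 0.83 and 0.15, beside -0.08, 0.02 and 0.00.

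**Figure D1:**
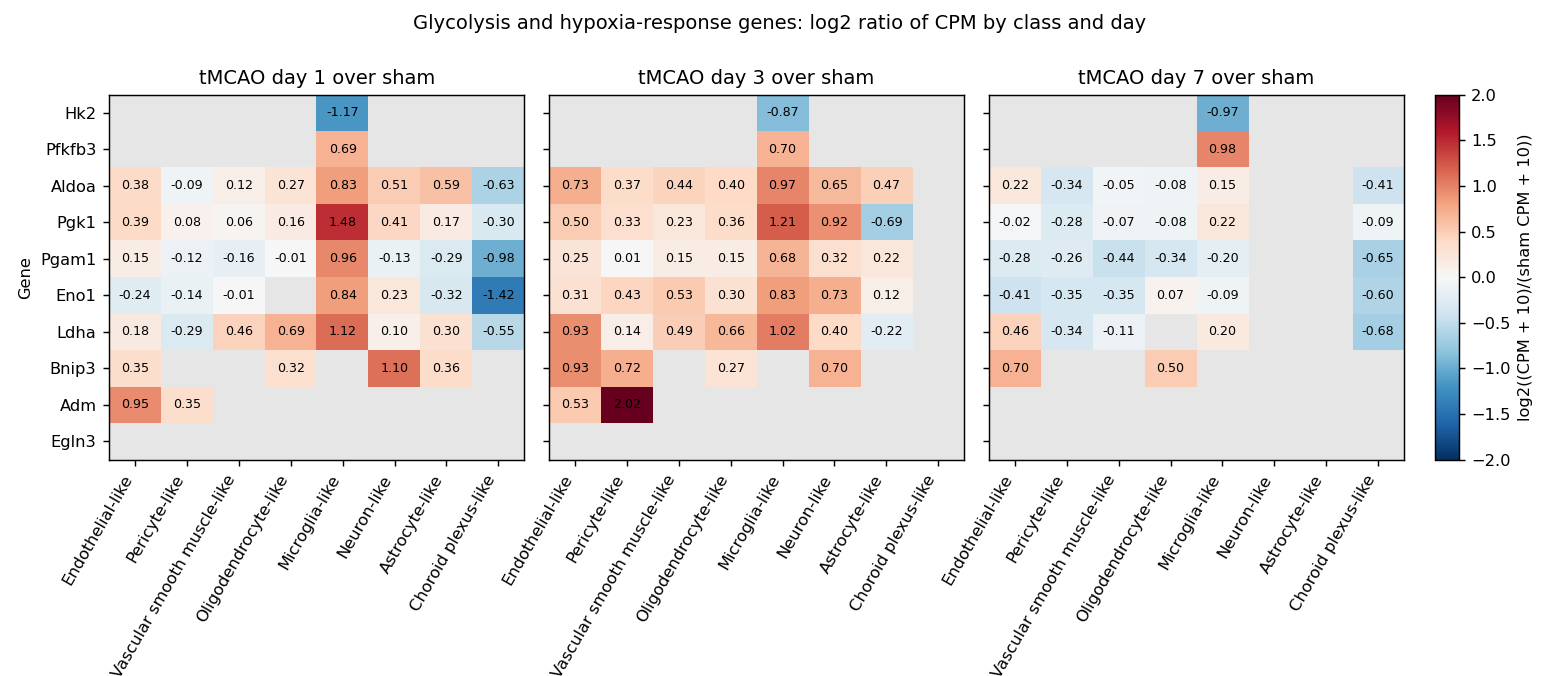
Log2 ratio of CPM over sham, with 10 CPM added to both levels, for each member (vertical axis) and class of cells (horizontal axis) at day 1, day 3 and day 7. The day 3 panel is mostly on the higher side, with Adm in pericyte-like cells at 2.02, while the lowest values of the called pairs are those of Eno1 in choroid plexus-like cells (-1.42) and Hk2 in microglia-like cells (-1.17) at day 1.

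Hk2, a hexokinase isoform that binds mitochondria and opens the pathway, was highest in microglia-like cells among the classes of at least 50 cells. These cells held 146 of its 271 UMIs in the sham library. Its level there was 318 CPM in sham (146 UMIs), 136 at day 1 (341 UMIs), 169 at day 3 (233 UMIs) and 157 at day 7 (176 UMIs). The sham level was the highest, and the intervals of the 3 tMCAO libraries (122 to 151, 148 to 192 and 135 to 182 CPM) did not reach the sham interval of 268 to 373. The ratios over sham were 0.427 (0.351 to 0.522), 0.533 (0.431 to 0.660) and 0.495 (0.396 to 0.621), of which the first passed 2-fold on the scale with 10 CPM added and the other two, at log2 ratios of -0.87 and -0.97, did not. In microglia-like cells at day 1, 12.6% of all genes measured passed 2-fold downward and 11.4% upward. In every other class of at least 50 cells the level of Hk2 was at most 40.9 CPM, the value in fibroblast-like cells at day 1, and in endothelial-like cells it was between 0.491 and 1.16 CPM. Border macrophage-, monocyte-, neutrophil- and B-like cells stayed under 50 cells in each library, and no level was taken for them.

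After thinning every cell to 1000 UMIs, 29.4% of sham microglia-like cells held a Hk2 UMI (20.8% to 39.3%). The shares were 12.4% (9.56% to 15.8%) at day 1, 18.2% (13.9% to 23.2%) at day 3 and 15.6% (11.1% to 21.0%) at day 7. The day 3 and day 7 intervals overlapped that of sham. Without thinning the shares were 48.5%, 35.6%, 37.3% and 35.5%, at median depths of 1977, 3732, 2721 and 3052 UMIs per cell, so the order of sham above the tMCAO libraries was the same. In endothelial-like cells, at median depths of 1897 to 2910 UMIs, at most 0.0959% of thinned cells held a Hk2 UMI. The sham signal was spread over 66 cells, and the 10 cells with the most held 35.6% of its UMIs. In the same microglia-like sums, the 8 immediate-early genes examined (Fos, Fosb, Jun, Junb, Egr1, Atf3, Ier2 and Dusp1), which are induced by handling and dissociation, summed to 30834 CPM in sham, 7731 at day 1, 17872 at day 3 and 24454 at day 7, and their part in the Hk2 difference was not tested.

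**Figure D2:**
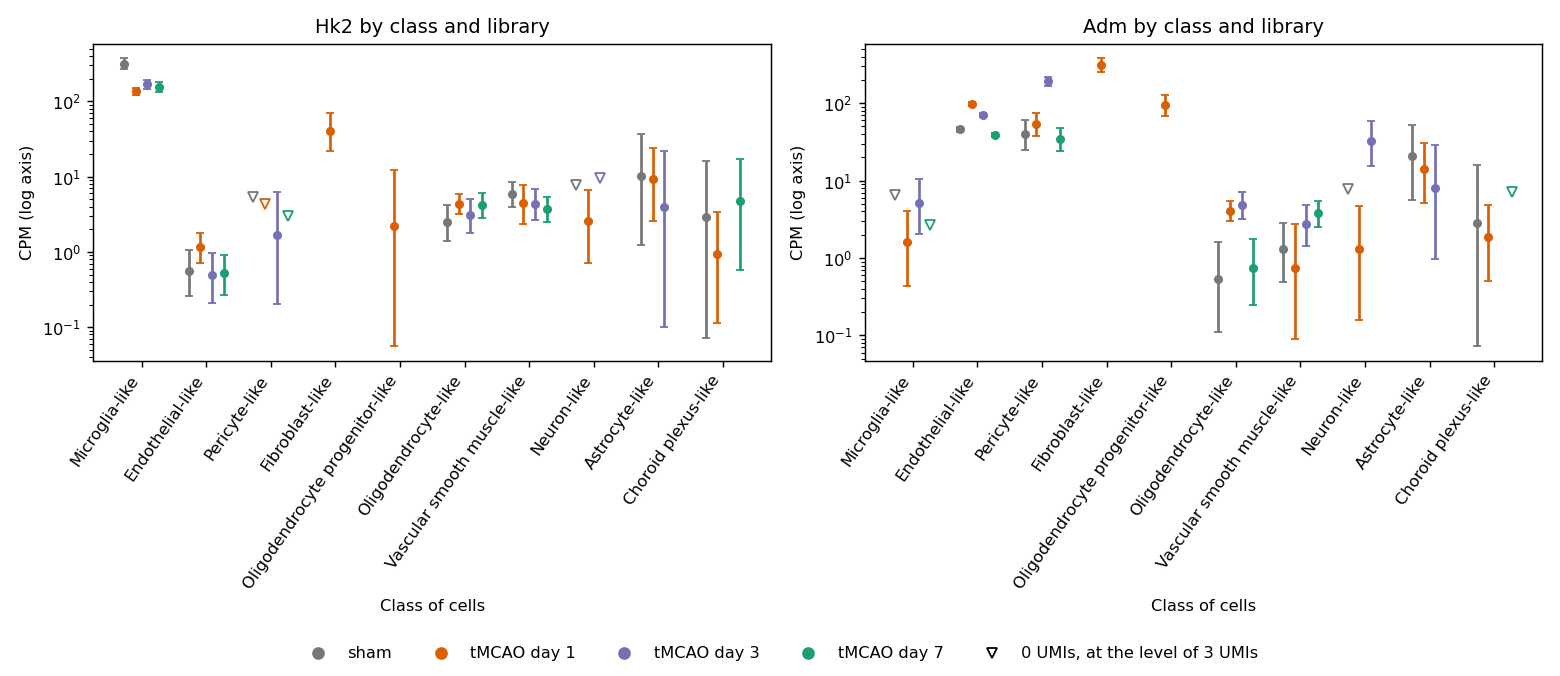
Level of Hk2 and Adm in CPM (log axis) by class of cells (horizontal axis), with a point for each of the 4 libraries, bars for exact 95% Poisson intervals and open triangles for classes with 0 UMIs drawn at the level of 3 UMIs. Hk2 stands at 136 to 318 CPM in microglia-like cells and at 40.9 CPM or less in the other classes of at least 50 cells, while Adm is high in endothelial-like and pericyte-like cells and, at day 1, in fibroblast-like cells (311 CPM).

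Pfkfb3 makes fructose 2,6-bisphosphate, the activator of phosphofructokinase, and is the main glycolytic switch of sprouting endothelium. In microglia-like cells its level was 56.6 CPM in sham, 97.0 at day 1, 98.0 at day 3 and 122 at day 7, the opposite direction to Hk2 in the same cells. The ratios were 1.72 (1.14 to 2.68), 1.73 (1.13 to 2.75) and 2.15 (1.41 to 3.41), from 26 UMIs in sham, and the last had a log2 ratio of 0.98 with 10 CPM added, so none counted as past 2-fold. In endothelial-like cells Pfkfb3 stood at 8.60 CPM in sham (137 UMIs), 9.37 at day 1 (162 UMIs), 38.3 at day 3 (623 UMIs) and 18.7 at day 7 (429 UMIs). The day 3 level was 4.45-fold that of sham (3.69 to 5.39) and 4.08-fold that of day 1 (3.43 to 4.88). Because it stayed below 50 CPM it was not among the pairs counted above. The share of thinned endothelial-like cells with a Pfkfb3 UMI moved alike, from 0.865% and 0.959% to 3.66% (3.15% to 4.21%) and then 1.70%. Without thinning the shares were 2.59%, 2.14%, 8.20% and 4.34%. In the same endothelial-like cells the 5 neutrophil markers summed to 3.64, 39.3, 252 and 5.78 CPM, highest at day 3. The 5 monocyte markers, at 7.41, 29.5, 165 and 14.7 CPM, were highest at day 3 too. The 5 erythrocyte markers (627, 152, 337 and 222 CPM) were highest in sham. The part of these other cells in the day 3 levels of the members was not tested.

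Aldoa, the aldolase that cleaves fructose 1,6-bisphosphate, showed the day 3 maximum in most classes. In endothelial-like cells its level was 364 CPM in sham, 478 at day 1, 611 at day 3 and 425 at day 7, with ratios of 1.31 (1.27 to 1.36), 1.68 (1.63 to 1.74) and 1.17 (1.13 to 1.21). In pericyte-like cells, which had the highest Aldoa level of the classes at day 1 and day 3, it stood at 1149, 1082, 1484 and 907 CPM. The pericyte-like ratio was 1.29 (1.18 to 1.42) at day 3 and 0.789 (0.712 to 0.875) at day 7, while the day 1 log2 ratio of -0.09 turned to 0.15 with classes from clusters. Oligodendrocyte-like cells had 696, 839, 919.9 and 659.7 CPM, and neuron-like cells 684, 975 and 1077 CPM in sham, day 1 and day 3. In microglia-like cells the 4 levels were 252, 456, 503 and 282 CPM, so that day 1 and day 3 stood clear of sham (ratios 1.81 and 1.99) and day 7 did not (1.12, 0.899 to 1.39).

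Pgk1, phosphoglycerate kinase, makes the first ATP of the pathway. Its largest ratio was in microglia-like cells, where its level was 47.9 CPM in sham (22 UMIs), 151 at day 1 (380 UMIs), 124 at day 3 (171 UMIs) and 57.2 at day 7 (64 UMIs). Day 1 and day 3 were past 2-fold, with ratios of 3.16 (2.06 to 5.10) and 2.59 (1.66 to 4.25), and the day 7 interval, 0.726 to 2.04, held 1. At day 3, 3.15% of all genes measured in these cells were past 2-fold upward, against 11.4% at day 1. In endothelial-like cells Pgk1 stood at 68.9, 93.1, 102 and 67.9 CPM, that is 1.35 (1.25 to 1.46) and 1.48 (1.37 to 1.60) times sham at day 1 and day 3 and level with it at day 7 (0.986, 0.912 to 1.07). Neuron-like cells had 95.8, 131 and 189.6 CPM in sham, day 1 and day 3.

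Pgam1 and Eno1, phosphoglycerate mutase and enolase, carry out the next steps. Pgam1 stood at 143, 159.6, 173 and 116 CPM in endothelial-like cells, and at 133, 268, 219 and 114 CPM in microglia-like cells, where the day 1 ratio was 2.02 (1.55 to 2.67) and its log2 ratio with 10 CPM added 0.96. Eno1 was the member that was lower at day 1 in endothelial-like cells: its levels were 142 CPM in sham, 119 at day 1, 179 at day 3 and 105 at day 7. The ratios were 0.834 (0.786 to 0.886), 1.26 (1.19 to 1.33) and 0.736 (0.694 to 0.780). In microglia-like cells Eno1 followed the other enzymes instead, with 102, 191, 189 and 95.6 CPM. Vascular smooth muscle-like cells had 142, 141, 209.9 and 109.6 CPM, a day 3 ratio of 1.47 (1.33 to 1.63).

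Ldha, the lactate dehydrogenase subunit that favours lactate formation, had a day 3 ratio in endothelial-like cells next to that of Bnip3 among the measured members. Its level there was 369 CPM in sham (5879 UMIs), 419.9 at day 1, 714 at day 3 (11625 UMIs) and 513 at day 7. The ratios were 1.14 (1.10 to 1.18), 1.93 (1.87 to 2.0) and 1.39 (1.35 to 1.43), so day 3 stood just under 2-fold and day 7 lay between day 1 and day 3. The neutrophil and monocyte markers given above were highest at day 3 in these cells too. Their part in the Ldha level was not tested. At day 3 and at day 7 endothelial-like cells had the highest Ldha level of the classes, clear of the next. In microglia-like cells the levels were 141 CPM (65 UMIs), 319, 298 and 164, with ratios past 2-fold at day 1 (2.25, 1.75 to 2.95) and day 3 (2.11, 1.62 to 2.78) and an interval of 0.872 to 1.57 at day 7. Oligodendrocyte-like cells, at a lower level, had 35.3, 63.2, 61.5 and 35.5 CPM. Vascular smooth muscle-like cells had 286, 397, 406 and 265 CPM, while the pericyte-like cells, at 370.5, 302, 409 and 289.7 CPM, stood below sham at day 1 (0.816, 0.670 to 0.994) and day 7. With classes from clusters the day 1 log2 ratio of these cells turned from -0.29 to 0.15.

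**Figure D3:**
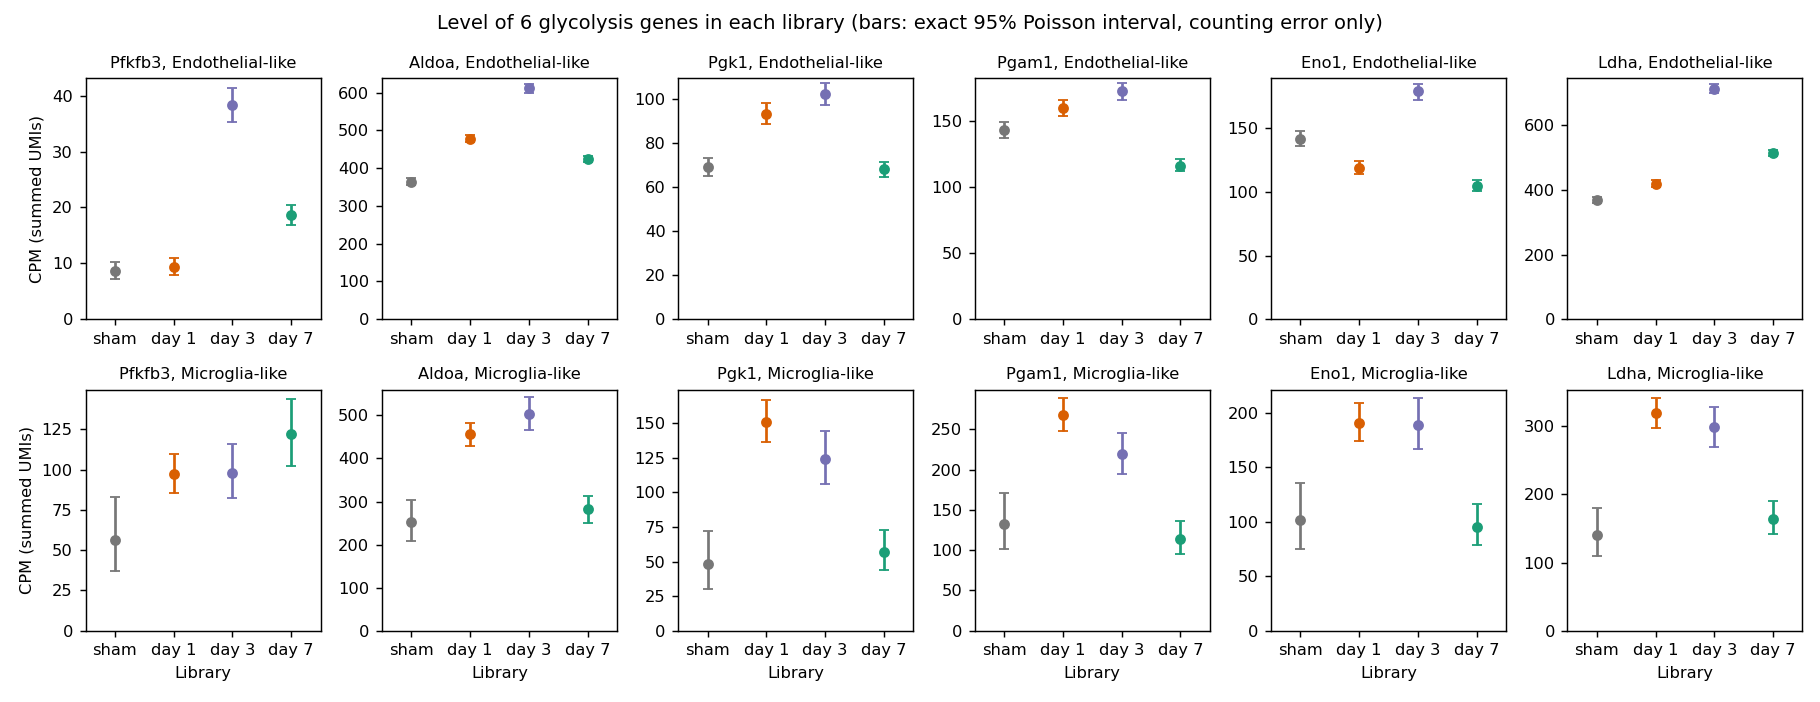
Level in CPM of 6 glycolysis genes in each of the 4 libraries (horizontal axis) in endothelial-like (upper panels) and microglia-like cells (lower panels), with exact 95% Poisson intervals for counting error. Endothelial-like Ldha and Aldoa peak at day 3 (714 and 611 CPM), and microglia-like Ldha and Pgk1 are high at day 1 and day 3 and near sham at day 7.

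In microglia-like cells, then, Pgk1, Aldoa, Pgam1, Eno1, Ldha and Pfkfb3 all had intervals above sham at day 1 and again at day 3, while Hk2 was below it. Of all genes measured in these cells, 46.8% stood above sham at day 1 and 52.1% at day 3. The share of all genes with intervals that exclude 1 was not computed. At day 7 Pfkfb3 alone of the 7 measured members was above sham and Hk2 alone below, and the intervals of the other 5 held 1. These cells were deeper at day 1 (median 3732 UMIs) than in sham (1977). Their markers P2ry12 and Tmem119 were at 1923 and 1438 CPM in sham and at 327 and 418 CPM at day 1, 1067 and 887 at day 3 and 899 and 669 at day 7. The 5 border macrophage markers summed to 181, 486, 95.1 and 81.3 CPM, the 5 monocyte markers to 629, 852, 637 and 645, and the 5 neutrophil markers to 2.18, 145, 45.0 and 11.6. Other lists were highest in sham: the 5 erythrocyte markers summed to 5320, 809, 2508 and 406 CPM and the 5 vascular smooth muscle markers to 789.6, 69.2, 619 and 464 CPM. The part of these other cells and of depth in the member levels was not tested. The limit of 3000 genes per cell also bears on these cells: with a limit of 6000, Pgam1 (2.73), Aldoa (2.19) and Eno1 (2.28) passed 2-fold at day 1 as well. With classes taken from clusters in place of the gate, Ldha (1.92 at day 1 and 2.04 at day 3) and Pgk1 at day 3 (1.95) no longer counted as past 2-fold, while Hk2 and Pgk1 at day 1 did so under all 14 alternatives tried.

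Choroid plexus-like cells, which were 84 in sham, 194 at day 1 and 114 at day 7 (31 at day 3, too few to compare), stood below sham for all 5 measured members at day 1. On that day 1814 of the 2386 genes measured also stood below sham in these cells. Their Eno1 level was 582 CPM in sham, 211 at day 1 and 379 at day 7, and the day 1 ratio of 0.362 (0.306 to 0.429) was past 2-fold, where 7.59% of all genes measured in these cells were past 2-fold downward. Pgam1 (0.498), Aldoa (0.642), Ldha (0.673) and Pgk1 (0.810) were below sham too, in a comparison whose median over all genes was itself shifted by -0.38 on the log2 scale. After centring on that median the Eno1 ratio was 0.470. The median depth of these cells was 3121 UMIs in sham and 11885 at day 1. Their 6 choroid plexus markers summed to 250507 CPM in sham, 355619 at day 1 and 280271 at day 7. The 8 immediate-early genes summed to 324, 783 and 1637 CPM in the same order. The part of depth, of these markers and of these genes in the lower member levels was not tested. The direction depended on the cells kept: with every deposited cell, the log2 ratios of Pgk1, Aldoa, Pgam1 and Ldha turned to 0.06, 0.20, 0.01 and 0.13, and Eno1, at a ratio of 0.639, was no longer past 2-fold. With up to 6000 genes per cell, Pgk1 and Aldoa turned to 0.06 and 0.01, and with centring on the median Pgk1 turned to 0.08.

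Bnip3, a mitochondrial outer membrane protein and a receptor for mitophagy, was highest at day 3 in endothelial-like cells and still above sham at day 7, as were Pfkfb3, Ldha and Aldoa. Its level there was 51.9 CPM in sham (827 UMIs), 68.9 at day 1, 108 at day 3 and 90.5 at day 7. The ratios were 1.33 (1.21 to 1.45), 2.08 (1.91 to 2.26) and 1.74 (1.61 to 1.89), and the day 3 value had a log2 ratio of 0.93 with 10 CPM added. In oligodendrocyte-like cells Bnip3 stood at 71.8, 91.8, 89.0 and 105 CPM, highest at day 7 (1.47, 1.30 to 1.67). In neuron-like cells it was at 33.7 CPM in sham (13 UMIs), 83.3 at day 1 (128 UMIs) and 61.1 at day 3 (19 UMIs), and the day 1 ratio of 2.48 (1.40 to 4.78) was past 2-fold, as were 11.2% of all genes measured in these cells upward. The neuron-like difference rested on few UMIs, and with a limit of 6000 genes per cell it was 1.86, under 2-fold, and the day 3 log2 ratio turned to -0.42. Snap25, a marker of mature synapses, stood at 533 CPM in the sham neuron-like cells and at 1354 CPM at day 1, and its part in the Bnip3 difference was not tested.

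Adm, the precursor of adrenomedullin, a peptide that dilates vessels and tightens the endothelial barrier, was highest in endothelial-like and pericyte-like cells and, at day 1, in fibroblast-like and oligodendrocyte progenitor-like cells, and stood at 0.749 to 3.76 CPM in vascular smooth muscle-like cells. In endothelial-like cells its level was 46.0 CPM in sham (732 UMIs), 97.8 at day 1 (1690 UMIs), 70.7 at day 3 (1151 UMIs) and 38.9 at day 7 (894 UMIs). It peaked at day 1, whereas the 5 glycolysis genes measured at 50 CPM or more in the same cells were highest at day 3, with a ratio of 2.13 (1.95 to 2.32) and a log2 ratio of 0.95 with 10 CPM added, and the day 3 ratio was 1.54. In pericyte-like cells the levels were 39.8 CPM in sham (22 UMIs), 53.5 at day 1 (37 UMIs), 192 at day 3 (225 UMIs) and 34.4 at day 7 (34 UMIs). The day 3 library was highest, at 4.82-fold sham (3.11 to 7.85) and 3.58-fold day 1 (2.52 to 5.22), and day 7 was at 0.18 of day 3 (0.121 to 0.258). With classes from clusters, day 1 was past 2-fold too, at 3.17-fold sham, and day 3 was at 6.07-fold. Upward changes past 2-fold were found for 0.466% of all genes measured in pericyte-like cells at day 3. The 8 immediate-early genes summed to 7993, 3881, 2289 and 4797 CPM in the same pericyte-like cells, lowest at day 3, and their part in the Adm difference was not tested. The endothelial-like maximum was at day 1 and the pericyte-like maximum at day 3, and the difference between the classes was not tested.

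Fibroblast-like cells, which passed 50 cells at day 1 alone and so have no comparison, held 311 CPM of Adm there (253 to 379), and oligodendrocyte progenitor-like cells 94.9 CPM (68.7 to 128). The fibroblast-like value came from 99 UMIs in 34 of 82 cells, and 65.7% of them lay in the 10 highest cells. The oligodendrocyte progenitor-like value came from 43 UMIs in 27 of 152 cells, and its interval overlapped that of endothelial-like cells at day 1 (93.2 to 103). Of these cells, 70.7% of the fibroblast-like and 44.7% of the oligodendrocyte progenitor-like ones lay within 1 marker of the cut.

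The pericyte-like Adm UMIs at day 3 came from 108 of 542 cells, with at most 9 UMIs in a cell and 26.2% of the UMIs in the 10 highest cells. At 1000 UMIs per cell, 3.08%, 3.89%, 13.3% and 3.29% of pericyte-like cells held an Adm UMI (8.57%, 5.64%, 19.9% and 6.47% without thinning, at median depths of 2596, 1334, 2130 and 1959 UMIs). The shares for endothelial-like cells were 2.67%, 6.48%, 5.80% and 3.28%. In oligodendrocyte-like cells, at median depths of 4824 to 7918 UMIs, at most 0.192% of thinned cells held an Adm UMI. This class is a low estimate of the background from free RNA: judged by the markers of other classes, free RNA made up 1.02% to 3.28% of its UMIs, but 3.45% to 8.80% in pericyte-like and 4.31% to 12.4% in endothelial-like cells. With free RNA subtracted at these shares, the day 3 Adm ratio in pericyte-like cells was 4.88. The 6 endothelial markers summed to 260.2, 296, 327 and 387 CPM in pericyte-like cells and were highest at day 7. The 5 pericyte markers summed to 31045, 23299, 36494 and 22901 CPM there, highest at day 3. So were the 5 neutrophil markers (1.81, 2.89, 51.1 and 4.05 CPM) and the 5 monocyte markers (12.7, 11.6, 20.5 and 7.09 CPM). The part of other cells in the day 3 Adm level was not tested. Adm in oligodendrocyte-like cells was 0.543 CPM in sham (3 UMIs), 4.09 at day 1 and 4.88 at day 3, and 0.752 CPM at day 7, but 18 of the 44 UMIs at day 1 and 13 of the 25 at day 3 lay in a single cell.

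**Figure D4:**
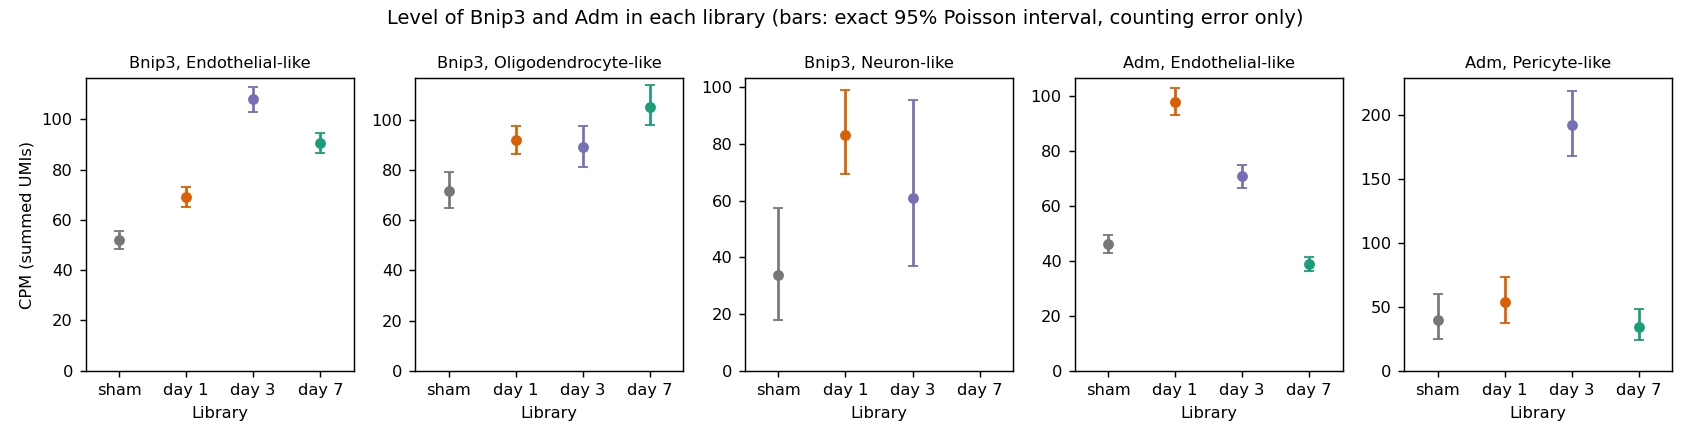
Level of Bnip3 and Adm in CPM in each library (horizontal axis) for Bnip3 in endothelial-like, oligodendrocyte-like and neuron-like and for Adm in endothelial-like and pericyte-like cells, with exact 95% Poisson intervals. Adm peaks at day 1 in endothelial-like cells (97.8 CPM) and at day 3 in pericyte-like cells (192 CPM), and endothelial-like Bnip3 is still at 90.5 CPM at day 7.

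**Figure D5:**
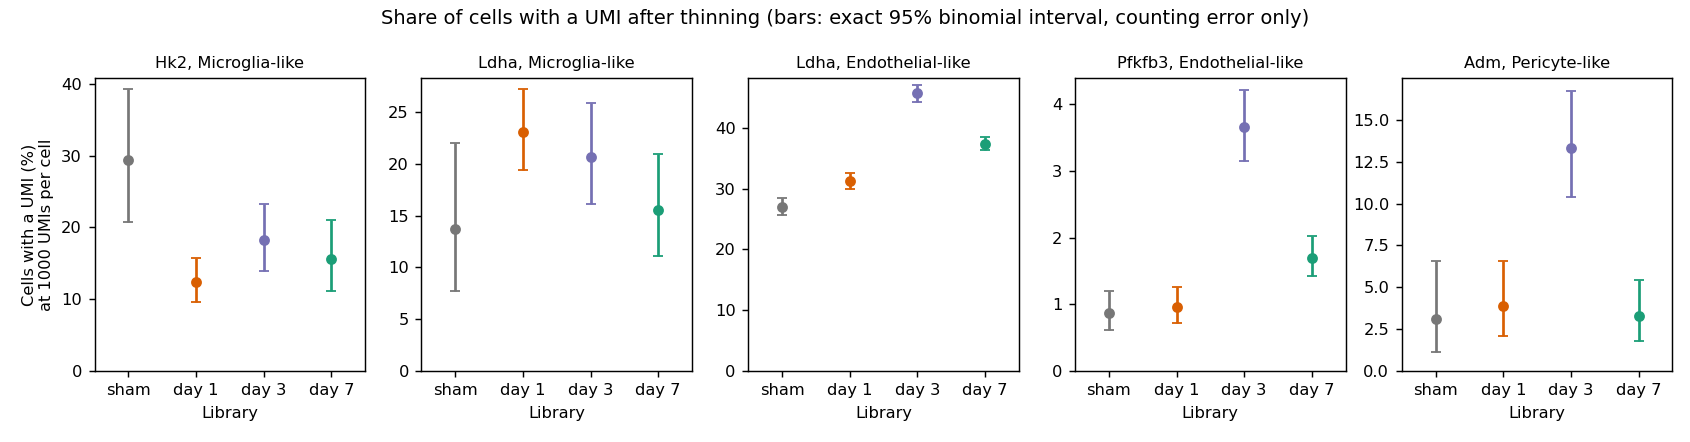
Share of cells in percent with at least 1 UMI of a member after thinning each cell to 1000 UMIs, by library (horizontal axis), with exact 95% binomial intervals. Sham microglia-like cells lead for Hk2 (29.4%), and the day 3 library leads for Ldha in endothelial-like cells (45.7%) and for Adm in pericyte-like cells (13.3%).

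For Ldha the thinned shares followed the levels: 27.0%, 31.3%, 45.7% and 37.4% of endothelial-like cells held a UMI (55.4%, 50.6%, 68.4% and 57.7% without thinning), and 13.7%, 23.1%, 20.7% and 15.6% of microglia-like cells (33.1%, 55.4%, 45.3% and 35.1%). The unthinned endothelial-like share at day 1 was lower than in sham, where cells were deeper, and the thinned share was higher. Endothelial-like cells with UMIs of at least 4 members at this depth made up 0.697% in sham, 1.23% at day 1, 3.53% at day 3 and 1.25% at day 7.

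Egln3, the prolyl hydroxylase that is itself a HIF target, was at the edge of detection. Its level over all kept cells was 1.06, 2.10, 1.68 and 1.32 CPM, and its highest values in a class were 18.1 CPM in sham neuron-like cells and 18.6 CPM in astrocyte-like cells at day 1. No class reached 50 CPM, so no Egln3 pair entered the counts. In neuron-like cells it was lower at day 1 than in sham, at 2 UMIs (1.30 CPM) against 7 (18.1 CPM), a ratio of 0.0718 (0.00728 to 0.377), and the day 3 interval, 0.00393 to 1.38, held 1.

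From day 3 to day 7 most measured members were lower again. In endothelial-like cells all 7 members measured had intervals below 1 for day 7 over day 3, and Pfkfb3, which was not among them, stood at 0.488 (0.430 to 0.552). The share of all genes lower at day 7 than at day 3 was not computed. Of these 2 libraries, Adm reached 50 CPM at day 3 alone (70.7 against 38.9 CPM), so it had to be lower at day 7. In vascular smooth muscle-like cells Ldha was at 0.653 (0.612 to 0.697) and Eno1 at 0.522 (0.475 to 0.575) of day 3. In pericyte-like cells the corresponding values were 0.708 (0.610 to 0.822) and 0.555 (0.425 to 0.721). The exceptions with intervals above 1 were Bnip3 in oligodendrocyte-like cells, at 1.19 (1.05 to 1.34), and Pfkfb3, below 50 CPM, in oligodendrocyte-like (1.51, 1.12 to 2.05) and vascular smooth muscle-like cells (2.06, 1.27 to 3.48). In microglia-like cells Pfkfb3 was at 1.24 (0.970 to 1.59) of day 3.

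Of 20 further glycolysis genes, 44 of 73 measured pairs stood above sham at day 1 (60.3%), 47 of 63 at day 3 (74.6%) and 16 of 47 at day 7 (34.0%), the same order of days as the members, beside 46.3%, 55.1% and 52.0% of all gene and class pairs. Past 2-fold upward were 6, 2 and 0 pairs (8.22%, 3.17% and 0, beside 5.15%, 2.42% and 2.82% of all pairs), and downward 4, 0 and 2 (5.48%, 0 and 4.26%, beside 4.32%, 2.67% and 1.29%). Gapdh, the dehydrogenase between aldolase and Pgk1, was 3.01-fold higher (2.64 to 3.45) in microglia-like cells at day 1, from 511 to 1537 CPM. Pkm, pyruvate kinase, was higher there (2.55, 2.08 to 3.15) and in neuron-like cells (2.18, 1.82 to 2.64) and lower in choroid plexus-like cells (0.463, 0.409 to 0.525) at day 1. Gpi1, glucose phosphate isomerase, was lower in choroid plexus-like cells at day 1 (0.419, 0.352 to 0.501). Pdk1, a kinase that keeps pyruvate from the mitochondrion, was lower in astrocyte-like cells at day 1 (0.205, 0.0558 to 0.640), from 11 and 5 UMIs. Outside the rule for naming genes, and named after their values were seen, the remaining pairs past 2-fold were Slc16a1, a lactate transporter, in endothelial-like cells at day 1 (2.21, 2.14 to 2.29), Eno2 (3.03) and Hk1 (2.20) in neuron-like cells at day 1, Gapdh (2.30) and Tpi1 (2.12) in microglia-like cells at day 3, Pfkfb4 (0.410) in astrocyte-like cells at day 1, and Slc2a1 (0.441) and Tpi1 (0.458) in choroid plexus-like cells at day 7.

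Of 19 further hypoxia-response genes, 24 of 62 measured pairs stood above sham at day 1 (38.7%), 36 of 58 at day 3 (62.1%) and 27 of 50 at day 7 (54.0%), beside 46.3%, 55.1% and 52.0% of all gene and class pairs. Past 2-fold upward were 2, 5 and 6 pairs (3.23%, 8.62% and 12%, beside 5.15%, 2.42% and 2.82% of all pairs), of which 4 of the 6 at day 7 were Ddit4, and downward 4, 0 and 2 (6.45%, 0 and 4.0%, beside 4.32%, 2.67% and 1.29%). Plin2, a lipid droplet coat protein, had the largest ratio: its level in microglia-like cells was 32.6 CPM in sham (15 UMIs) and 299 at day 1, a ratio of 9.17 (5.52 to 16.5), with ratios of 3.45 at day 3 and 4.00 at day 7. Hilpda, an inhibitor of lipolysis on the same droplets, was 5.60-fold higher (2.35 to 17.5) there at day 1. Ddit4, an inhibitor of mTORC signalling that also responds to glucocorticoids, was higher at day 7 in endothelial-like (3.04, 2.82 to 3.28), oligodendrocyte-like (3.05, 2.78 to 3.36), vascular smooth muscle-like (2.23, 2.0 to 2.49) and microglia-like (6.68, 2.49 to 25.2) cells, the day with the smallest share of member pairs above sham. It was also higher in neuron-like cells at day 3 (4.72, 1.70 to 16.2). Cited2, a HIF target that competes with HIF for its coactivator, was lower at day 1 in microglia-like (0.355, 0.301 to 0.421), neuron-like (0.403, 0.322 to 0.507) and vascular smooth muscle-like (0.460, 0.388 to 0.543) cells, and Fam162a was lower in choroid plexus-like cells at day 7 (0.422, 0.247 to 0.705). Plin2 was also higher in astrocyte-like cells at day 3 (2.77, 1.24 to 7.02). Named after their values were seen, Ankrd37 in endothelial-like (2.27, 2.13 to 2.43) and Mxi1 in astrocyte-like cells at day 3 (2.64, 1.32 to 5.73) and Ndrg1 in vascular smooth muscle-like cells at day 7 (2.12, 1.93 to 2.34) completed the pairs past 2-fold, together with Slc2a1 and Pdk1, which stand in both lists.

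Of the 8 genes of oxygen sensing and HIF itself, 2 of 24 measured pairs were past 2-fold upward and 1 downward at day 3 (8.33% and 4.17%, beside 2.42% and 2.67% of all pairs), and 0 at day 1 and at day 7. They are named after their values were seen. Hif1a, which encodes a HIF alpha subunit, was at 96.8, 129.5, 223 and 116 CPM in endothelial-like cells, highest at day 3 (2.30, 2.17 to 2.45), as were Ldha, Aldoa and Bnip3. A link between Hif1a RNA and these members was not tested. The neutrophil and monocyte markers in these cells were highest at day 3 too, and their part in the Hif1a level was not tested. In astrocyte-like cells Hif1a was lower (0.446, 0.247 to 0.785) and Egln1 higher (3.25, 1.06 to 13.3) at day 3, from 4 to 36 UMIs, in a comparison where 7.50% of all genes measured were past 2-fold upward and 7.02% downward. Of the 4 genes of the adrenomedullin receptor, 1 of 8 measured pairs was past 2-fold at day 1, 0 of 9 at day 3 and 1 of 6 at day 7, all upward (12.5%, 0 and 16.7%, beside 5.15%, 2.42% and 2.82% of all pairs). The receptor subunit Ramp2 was at 231 CPM in astrocyte-like cells at day 1 against 67.2 CPM in sham (3.43, 1.92 to 6.67), in a comparison where 6.93% of all genes measured were past 2-fold upward, and Ramp2 is abundant in endothelial-like cells, so its part from free RNA was not tested. In pericyte-like cells the Adm receptor Calcrl, also chosen after its values were seen, was at 34.3, 33.3, 52.8 and 88.1 CPM, highest at day 7 where Adm was back at its sham level. The summed endothelial markers in these cells were highest at day 7 too. Their part in the Calcrl level and a relation of Calcrl to Adm were not tested.

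Over 34 sums of a class and library, from 13 classes and with 3585 genes compared, the genes whose log2 level was most like the mean of the members' standardized levels were Rab24 (Pearson correlation 0.89), Gapdh (0.87), Canx (0.86) and Copz1, Tmem208, Pkm, Ssbp1, Ergic3 and 0610012G03Rik (0.85 each), with Ostc at 0.84. Among the members, Pgam1 and Aldoa had a correlation of 0.87, Pgk1 and Pgam1 of 0.82, and Hk2 and Pfkfb3 of 0.73, the pair highest in microglia-like cells. Others ran apart, with Hk2 at -0.27 with Bnip3 and -0.26 with Aldoa, and Adm at -0.23 with Pfkfb3. The correlation with the mean of the members was 0.81 for Pgam1 but 0.16 for Hk2, 0.27 for Adm and 0.31 for Pfkfb3, so that mean describes Hk2, Adm and Pfkfb3 poorly. Each member is itself part of that mean, which raises its own correlation. The genes most like Adm were Itih5 (0.82), Cthrc1 (0.81) and Cp (0.78), and those most like Egln3 were Fjx1 (0.62), Nnat (0.59) and Chd9 (0.59). These points share libraries and classes, so the correlations describe this set of sums and carry no test. In 1 of the sums, the sham erythrocyte-like cells, the members totalled 38.9 CPM, against 1015 CPM or more in the others. The part of this sum in the correlations was not tested.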

How the data were processed

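The authors deposited cell-by-gene matrices of counts (whole UMIs) per library, made from 10x Genomics 3-prime libraries. The submitters' processing notes name Cell Ranger 3.0.1, Seurat 4.1.2 and GRCh38, whereas the matrix headers name Cell Ranger 4.0.0 and the feature identifiers are mouse genes. Which mouse build was used is not given in the sources used here. Gene positions come from the GRCm38 annotation that matched the identifiers and RefSeq promoters of the same build. The members, marker lists and pathway lists were chosen with earlier results of these data known.

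The study's limits on cells (200 to 3000 genes, no more than 10% of UMIs from mitochondrial genes) were applied, and the remaining cells were gated into classes by markers. The paper reports more cells in every library after its quality control, so its set of cells was not reproduced. Between 8.65% and 11.7% of kept cells per library passed no gate. UMIs were summed per class and library and scaled to CPM. Ratios over sham carry exact conditional 95% intervals, levels exact Poisson intervals and shares exact Clopper-Pearson intervals, all for counting error only. A pair was measured at 50 CPM in either library and counted at a log2 ratio of 1 in size with 10 CPM added. Shares of cells were computed after thinning to 1000 UMIs, leaving out shallower cells (34 of 136 sham microglia-like cells, for example). Scrublet marked 4.33% of kept cells at day 1 and at most 0.132% in the other libraries, where it did not work, so no cell was removed for it, and leaving out the 5% highest scores per library was added after seeing the data. Named genes of the wider lists were the 5 largest rises, the 5 largest falls and genes past 2-fold in at least 3 class and day pairs. Python 3.11.15, numpy 2.4.6, pandas 2.3.3, scipy 1.17.1 and scanpy 1.11.5 were used, and the scripts were tested on simulated data.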

Additional observations from a re-analysis of the deposited data

Results flagged for a closer look

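At day 1, 5 members (Pgk1, Aldoa, Pgam1, Eno1 and Ldha) had intervals above sham in microglia-like cells and below sham in choroid plexus-like cells. The opposite direction in the 2 classes drew attention to them, and the difference between the classes was not tested, since each group has 1 library. For Eno1 the ratios were 1.87 (1.38 to 2.58) and 0.362 (0.306 to 0.429). Of all genes measured at day 1, 46.8% stood above sham in microglia-like and 24.0% in choroid plexus-like cells. With every deposited cell, the choroid plexus-like direction turned for Pgk1, Aldoa, Pgam1 and Ldha. It turned for Pgk1 and Aldoa with up to 6000 genes per cell, and for Pgk1 with centring on the median.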

How the results depend on the processing

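No paired analysis was possible because each group has 1 library, and for the same reason no replicate could be left out. Counts of pairs past 2-fold moved with the settings as follows, and the cause was not tested. At day 1 the 3 higher pairs became 8 with up to 6000 genes per cell, 7 with every deposited cell, and 5 with centring on the median, with CPM without mitochondrial and ribosomal protein UMIs, with the mean of per-cell CPM, with 1 CPM added and with free RNA subtracted. The 2 lower pairs became 1 with up to 6000 genes, with at most 5% mitochondrial UMIs and with every deposited cell, and 3 with 1 CPM added and with no filter. At day 3 the 3 higher pairs became 6 with up to 6000 genes, 5 with every deposited cell, with a filter at 20 CPM and with no filter, and 1 with classes from clusters, and the 0 lower became 2 with no filter. Under the other settings the higher pairs were 3 or 4 at day 1 and at day 3. Over all kept cells at day 3, 1 member passed 2-fold by the mean of per-cell CPM, against 0. At day 7 the 0 higher pairs became 7 with classes from clusters (6 of them in erythrocyte-like cells), 2 with every deposited cell and 1 with up to 6000 genes, at most 5% mitochondrial UMIs, CPM without mitochondrial and ribosomal protein UMIs or 1 CPM added. The 0 lower became 2 with classes from clusters (both in neuron-like cells) and 1 with up to 6000 genes, every deposited cell, 1 CPM added or free RNA subtracted. Erythrocyte-like and neuron-like cells were 14 and 46 under the marker gate at day 7, so these pairs were not compared with the gate and were added by the clusters. Of the 123 measured pairs, 9 changed direction with up to 6000 genes, 12 with every deposited cell and 8 with classes from clusters. At most 5 did so under any other setting, among which at most 5% mitochondrial UMIs left 102 pairs measured. Adm in pericyte-like cells at day 3 and Hk2 and Pgk1 in microglia-like cells at day 1 were past 2-fold under all 14 alternatives, of which the filter at 20 CPM and no filter could not change these calls and leaving out Scrublet doublets removed at most 0.132% of cells in the libraries other than day 1. In the classes of at least 50 cells, Hk2 outside microglia-like cells and Egln3 in all of them stayed below 50 CPM, where depth limits what can be compared.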
